A study of Mus musculus with 4 samples.

Results

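Genes of the NADPH oxidase, of antioxidant defence and of iron handling were compared between mouse eosinophils of 2 tissues. Members were the listed genes whose symbols belong to the subunits of the phagocyte oxidase and the Nox family, to glutathione peroxidases, peroxiredoxins, thioredoxins, glutaredoxins, superoxide dismutases, catalase and methionine sulfoxide reductases, to glutathione synthesis and glutathione transferases, to the heme oxygenases, quinone reductases, NRF2 family and KEAP1, or to ferritin, the transferrin receptor and metallothioneins. The rule found 41 members among 5807 listed genes. In the RefSeq annotation of the mouse it matched 94 protein-coding genes, so 53 of these were not listed.

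Eosinophils were sorted from wild-type (WT) mice 2 days after 150000 LLC cells had been injected; LLC is a line of mouse Lewis lung carcinoma that gives rise to malignant pleural effusion (MPE). One group came from bone marrow and the other from the pleural cavity, by pleural lavage, with 2 RNA-seq libraries in each; mice were 6 to 8 weeks old, and the strain of these animals and the number pooled per library are not given in the sources used here. The sources differ on the bone marrow cells: the study's methods and the sample labels describe mice given LLC cells, while its text also calls these cells naïve, and the labels were followed. About 40000 eosinophils went into each RNA preparation, and paired reads of 100 bp were sequenced. Bone marrow cells, enriched through F4/80, were gated as CD45+ SiglecF+ with high side scatter, while the pleural gate also required CD11b and F4/80 and excluded CD11c and high Gr1, so the gates differ with the tissue. The methods describe the sorted cells as nearly pure eosinophils.

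The values are the authors' mean reads per gene in each tissue. Values of single libraries are not part of the table, so neither a spread between replicates nor a test could be computed. The means of all listed genes add up to 15947438 reads for the pleural cavity and 11762543 for the bone marrow, which are sums over part of the genes and no library totals. Each mean was divided by its tissue's sum, and the log2 ratio of pleural cavity over bone marrow was taken after adding 1 read to each mean. By the study's account, every listed gene was selected by the authors' own comparison of the same tissues, by a p-value and a fold threshold. Direction and size are therefore a description, and a gene that was not listed has no direction here. The ratios used here were computed anew from the mean reads, and 16 of the 41 members and 1943 of the 5807 listed genes lay within 2-fold. From -0.5 to 0 there were 2 listed genes, against 402 from -1 to -0.5 and 535 from 0 to 0.5. A 2-fold filter in each direction would leave a wider gap under any 1 scaling, so the stated fold threshold is not visible in these ratios.

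Granulocytes use the NADPH oxidase, a membrane enzyme, to pass electrons from NADPH to oxygen and make superoxide. Dismutases turn superoxide into hydrogen peroxide, which catalase, glutathione peroxidases and peroxiredoxins remove. Glutathione and thioredoxin supply the reducing power for these steps, and the transcription factor NRF2, held back by KEAP1, drives many of the genes. Iron joins this network because free iron turns peroxide into more reactive radicals, and ferritin stores it in a safe form. Eosinophils are known for a strong oxidative burst and for a peroxidase of their own, stored in granules.

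Of the 41 members, 16 had more and 25 had fewer scaled reads in the pleural cavity. Taken in the same way from the mean reads, without a fold threshold, 42.5% of all listed genes were higher and 57.5% lower. The authors' own directions were not used. At least 2-fold higher were 4 members, against 16% of all listed genes, and at least 2-fold lower were 21 members, against 50.5%. Without scaling, or with a trimmed mean of ratios, these counts were 9 and 15. The shares of 16% and 50.5% belong to the scaling by listed reads and cannot be set against these. The members' median log2 ratio was -1.01, and that of all listed genes was -1.02. The oxidase subunit gene Cyba, the 2 most abundant glutathione peroxidases, the listed thioredoxin reductases and ferritin light chain were higher in the pleural cavity. Lower were all 12 listed genes of glutathione synthesis, glutathione reduction and glutathione transfer, Hmox1, Nqo1, Mt1 and the transferrin receptor gene.

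Level and direction went together among the members. With a mean over both tissues of at least 1000 reads, 13 of 21 members were higher and the median log2 ratio was 0.34. Below that level 3 of 20 members were higher and the median was -2.36. The same held over the whole list: among the 2171 listed genes at or above that level, 70% were higher and 30% lower, with a median of 0.47.

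**Figure D1:**
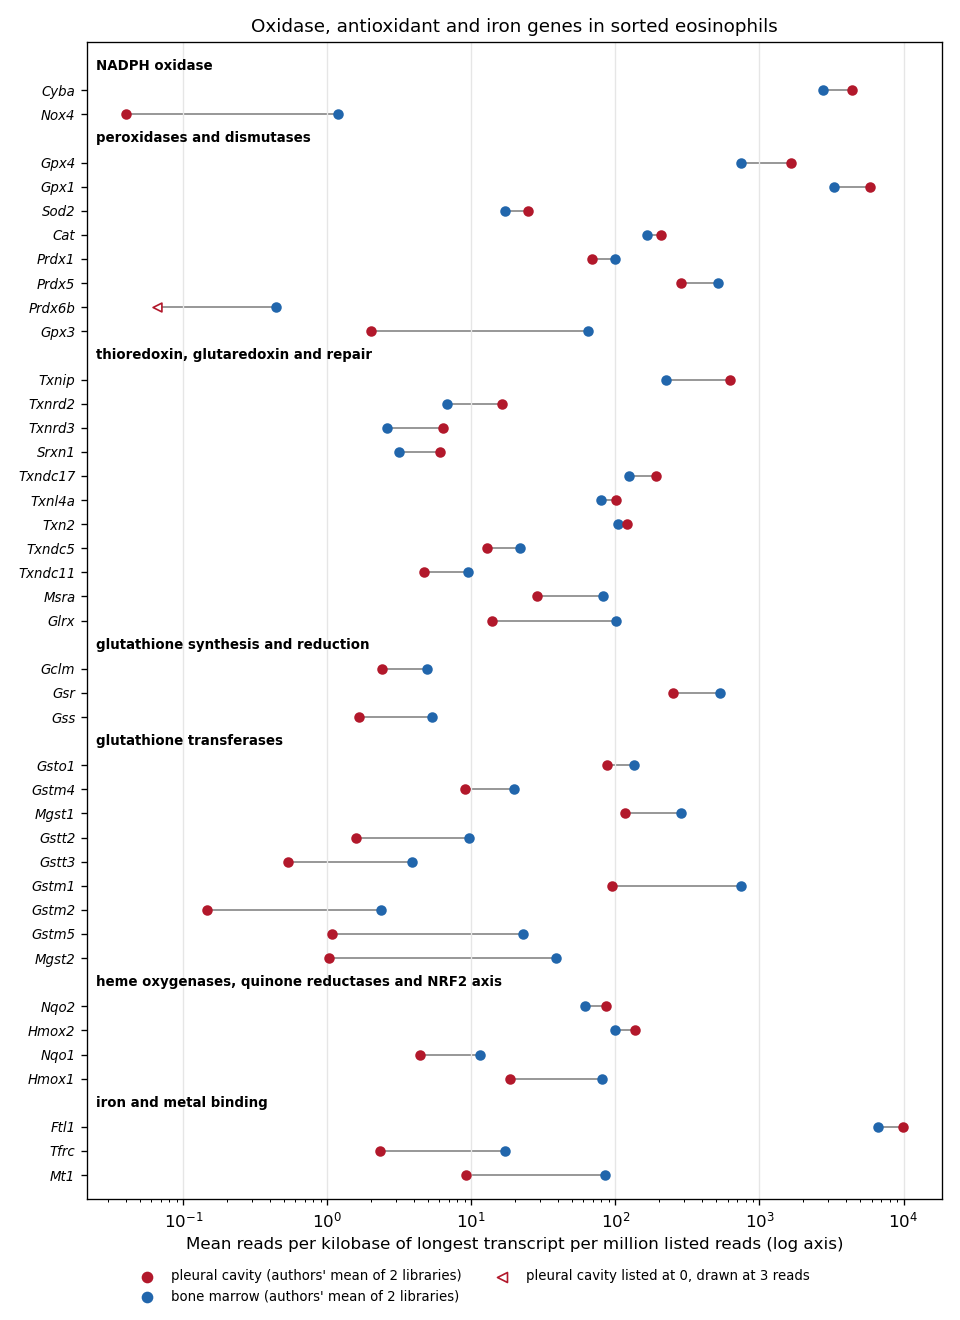
Each line joins the authors' mean of a member in pleural cavity (red) and bone marrow (blue) eosinophils, in reads per kilobase of the longest transcript per 1000000 listed reads on a log axis, with the members described here grouped by role. Ftl1, Gpx1 and Cyba sit at the right end in both tissues, and the glutathione genes all have the blue point to the right of the red one; the open triangle is Prdx6b, listed at 0 in the pleural cavity and drawn at 3 reads.

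Of the NADPH oxidase, Cyba and Nox4 are described. Cyba (ENSMUSG00000006519; GRCm38 chr8:122424776-122432930) encodes p22phox, the small membrane subunit that stabilises the catalytic one. The authors' mean was 51787 reads in pleural cavity against 24236 in bone marrow eosinophils, a log2 ratio of 0.66. Per kilobase of transcript per 1000000 listed reads, this level was 4365 against 2769, the third highest of all members in either tissue. The ratio was below 2-fold, though it passed that line in mean reads without scaling. Nox4, a catalytic subunit known mainly from kidney and vessel wall, went the other way from a very low level, with 2.5 mean reads in pleural cavity against 55 in bone marrow eosinophils. Its scaled mean was 29.8-fold lower in the pleural cavity, with a 95% counting interval of 12.4 to 93.7 that covers counting error only. Cybb, the catalytic subunit of the phagocyte oxidase, was not listed.

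Among 14 partners of the oxidase outside the rule, 5 were listed, of which 4 were higher; all 5 had a mean over both tissues of at least 1000 reads, a level at which 70% of all listed genes were higher. Prkcd, a protein kinase C that phosphorylates cytosolic subunits, had 13975 mean reads in the pleural cavity and 6548.5 in the bone marrow, a log2 ratio of 0.65. The small GTPase gene Rac1 had 11126.5 against 6207 reads and a log2 ratio of 0.40. Cybc1, whose product is a chaperone needed for the membrane subunits, had 4036 against 2256 reads, also with 0.40. Pld1, a phospholipase D, had 1490 against 628 reads and a ratio of 0.81. Vav1, an exchange factor for Rac GTPases, was the exception, with 1730 reads in the pleural cavity, 3664 in the bone marrow and a log2 ratio of -1.52. Apart from Vav1, each listed partner was within 2-fold after scaling.

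Peroxidases and dismutases gave 8 listed genes of 19, with 4 higher and 4 lower, against 42.5% higher among all listed genes. Gpx1 (ENSMUSG00000063856; GRCm38 chr9:108338903-108340343), the cytosolic glutathione peroxidase, had 100621 mean reads in pleural cavity against 41511 in bone marrow eosinophils, a log2 ratio of 0.84. It ranked 7th among all listed genes by mean reads in the pleural cavity and 28th in the bone marrow. Gpx4 (ENSMUSG00000075706; GRCm38 chr10:80047166-80056439), which reduces lipid hydroperoxides within membranes and is known as a brake on ferroptosis, had 26326.5 against 8778 reads, with a log2 ratio of 1.15 that fell to 0.95, short of 2-fold, when the most abundant genes were left out of the scaling. Gpx3 (ENSMUSG00000018339; GRCm38 chr11:54902453-54910377), the secreted form, had 51 reads in the pleural cavity and 1201.5 in the bone marrow. Its log2 ratio of -4.97 was the second lowest of the members with reads in both tissues. The other glutathione peroxidase genes were not listed.

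Catalase (Cat), which breaks down hydrogen peroxide in peroxisomes, had 8666.5 mean reads in pleural cavity against 5125.5 in bone marrow eosinophils, a log2 ratio of 0.32. Sod2, the mitochondrial superoxide dismutase, had 2299 against 1175 reads and a ratio of 0.53. The peroxiredoxins were lower. Prdx5, found in mitochondria and peroxisomes, had 8367 against 11132 reads and a log2 ratio of -0.85, and the cytosolic Prdx1 had 2514.5 against 2679 reads and a ratio of -0.53. For Prdx1 the mean reads themselves were nearly equal, and the ratio comes mostly from the scaling. Prdx6b, a retrogene copy of Prdx6, was listed at 0 reads in the pleural cavity and 15 in the bone marrow, which makes it at least 6.78-fold lower against a floor of 3 mean reads. Sod1, Sod3, Prdx2, Prdx3, Prdx4 and Prdx6 were not listed.

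Thioredoxin, glutaredoxin and repair genes had 11 of 27 listed, 7 higher and 4 lower, against 42.5% higher among all listed genes. Txnip (ENSMUSG00000038393; GRCm38 chr3:96557957-96561883), whose product binds and inhibits thioredoxin and restrains glucose uptake, had 28219.5 mean reads in pleural cavity against 7483.5 in bone marrow eosinophils. Its log2 ratio of 1.48 was the highest of the 41 members. The thioredoxin reductases recharge thioredoxin with electrons from NADPH. The mitochondrial Txnrd2 had 752 against 228 reads and a log2 ratio of 1.28, and Txnrd3 had 287.5 against 87 reads and a ratio of 1.27. Both were past 2-fold at modest levels, while mitochondrial thioredoxin itself, Txn2, had 3955 against 2501 reads and the log2 ratio nearest to 0 of any member under this scaling, 0.22. Srxn1, which restores overoxidised peroxiredoxins, had 271.5 against 104 reads. Its log2 ratio of 0.94 was just short of 2-fold. Txndc17, a thioredoxin-related protein, had 3012.5 against 1426.5 reads and a ratio of 0.64, and Txnl4a, a spliceosome component with a thioredoxin fold, had 6579 against 3808 reads and 0.35.

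The 4 lower genes of this role were Glrx, Msra, Txndc5 and Txndc11. Glrx, glutaredoxin, which removes glutathione from protein thiols, had 933 mean reads in the pleural cavity and 4983.5 in the bone marrow, a log2 ratio of -2.86. Msra, which repairs oxidised methionine, had 1162.5 against 2476.5 reads and a ratio of -1.53. Txndc5 and Txndc11 encode thioredoxin-like proteins of the endoplasmic reticulum. Txndc5 had 584 against 722.5 reads and a log2 ratio of -0.75, and Txndc11 had 320 against 475.5 reads and a ratio of -1.01. Cytosolic thioredoxin and its reductase, Txn1 and Txnrd1, were not listed.

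Selenocysteine, read from a UGA codon, forms the active site of Gpx1, Gpx3, Gpx4, Txnrd2 and Txnrd3. Of these 5 members 4 were higher, with Gpx3 the exception, against 42.5% of all listed genes. Gpx1 and Gpx4 had a mean over both tissues of at least 1000 reads, a level at which 70% of all listed genes were higher. Gpx3, Txnrd2 and Txnrd3 lay below that level, where 3 of 20 members were higher, Txnrd2 and Txnrd3 among them. The group of 5 was put together after the values were seen. Among 15 other genes of selenoproteins and their synthesis, 6 were listed, 3 higher and 3 lower. Selenow was higher, as were Selenok and Selenom: Selenow had 7557.5 mean reads in pleural cavity against 2203 in bone marrow eosinophils, Selenok 7647 against 3178 and Selenom 3493 against 1336.5. Sephs2, which makes the selenium donor, had 2856.5 against 4893.5 reads, and Selenoh had 239 against 985. Selenoprotein genes therefore stood on both sides.

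Glutathione synthesis and reduction gave 3 listed genes of 4, and glutathione transferases 9 of 23. All 12 were lower in the pleural cavity, against 57.5% of all listed genes, with a median log2 ratio of -2.13. At least 2-fold lower were 11 of them, against 50.5%. Gsr, Gstm1, Gsto1 and Mgst1 had a mean over both tissues of at least 1000 reads, where 30% of all listed genes were lower. The others lay below that level, where 17 of 20 members were lower, these genes themselves included. A share of all listed genes below that level was not computed. The 50.5% holds for the scaling by listed reads only. Without scaling, or with a trimmed mean of ratios, all 12 were still lower but 7 were at least 2-fold lower. Gclm, Gsr, Gstm4 and Mgst1 then lay within 2-fold. The reads of all 12 summed to 1078 per 1000000 listed reads in pleural cavity against 3122 in bone marrow eosinophils. Gclm encodes the modifier subunit of the rate-limiting enzyme of glutathione synthesis and had 213.5 mean reads in pleural cavity against 321 in bone marrow eosinophils, a log2 ratio of -1.03. Gss, the second enzyme of the pathway, had 86 against 203 reads and a ratio of -1.67. Gsr (ENSMUSG00000031584; GRCm38 chr8:33652523-33698163), glutathione reductase, which regenerates glutathione with NADPH, was the most abundant of the 12 by reads, with 10737.5 against 16731.5 and a log2 ratio of -1.08. Gclm and Txndc11 lay just past the 2-fold line and Prdx5, at -0.85, was the nearest member short of it; on the higher side Gpx4 was the nearest past it and Srxn1 the nearest short of it.

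The transferases join glutathione to reactive compounds. Gstm1 (ENSMUSG00000058135; GRCm38 chr3:108012255-108017973), a cytosolic enzyme of the mu class, had 1962 mean reads in pleural cavity against 11299 in bone marrow eosinophils, a log2 ratio of -2.96. Its mu class neighbours Gstm2, Gstm4 and Gstm5 were listed too, and these 4 genes lie in one cluster within GRCm38 chr3:107895821-108044894. Gstm5 had 18.5 against 291.5 reads and a log2 ratio of -4.35. Gstm4 had 246 against 398 reads and a ratio of -1.13. Gstm2 had 2.5 against 29.5 reads, and its scaled mean was 16-fold lower with a 95% counting interval of 6.48 to 51.1. The cluster was thus lower at every listed gene, over a range of levels. The theta class genes Gstt2 and Gstt3, neighbours on chromosome 10, had 56.5 against 256 and 17 against 90 reads, with log2 ratios of -2.60 and -2.78.

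Mgst2 (ENSMUSG00000074604; GRCm38 chr3:51660360-51682677), a microsomal enzyme that can also make leukotriene C4, had 46 mean reads in pleural cavity against 1285.5 in bone marrow eosinophils. Its log2 ratio of -5.21 was the lowest of the members with reads in both tissues. Mgst1, a microsomal transferase of the endoplasmic reticulum and outer mitochondrial membrane, had 2171.5 against 3944 reads and a ratio of -1.30. Gsto1, of the omega class, had 1640.5 against 1870 reads, and its ratio of -0.63 was the only one of the 12 within 2-fold. Outside the rule, Ltc4s, the main leukotriene C4 synthase of eosinophils and a relative of Mgst2, stood on the other side with 1063 reads in the pleural cavity, 28 in the bone marrow and a log2 ratio of 4.76. Of 12 further genes of glutathione turnover 6 were listed, 2 higher and 4 lower, against 57.5% lower among all listed genes. Lancl1, which binds glutathione, had 1713.5 against 565 reads and was the other higher one. Gstz1, Ggct, Hpgds and Chac1 were lower. Gstz1, of the zeta class, had 113 against 245 reads, and Ggct, which acts in glutathione breakdown, had 61.5 against 129. Chac1, which degrades glutathione, was listed at 0 reads in the pleural cavity and 64.5 in the bone marrow.

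**Figure D2:**
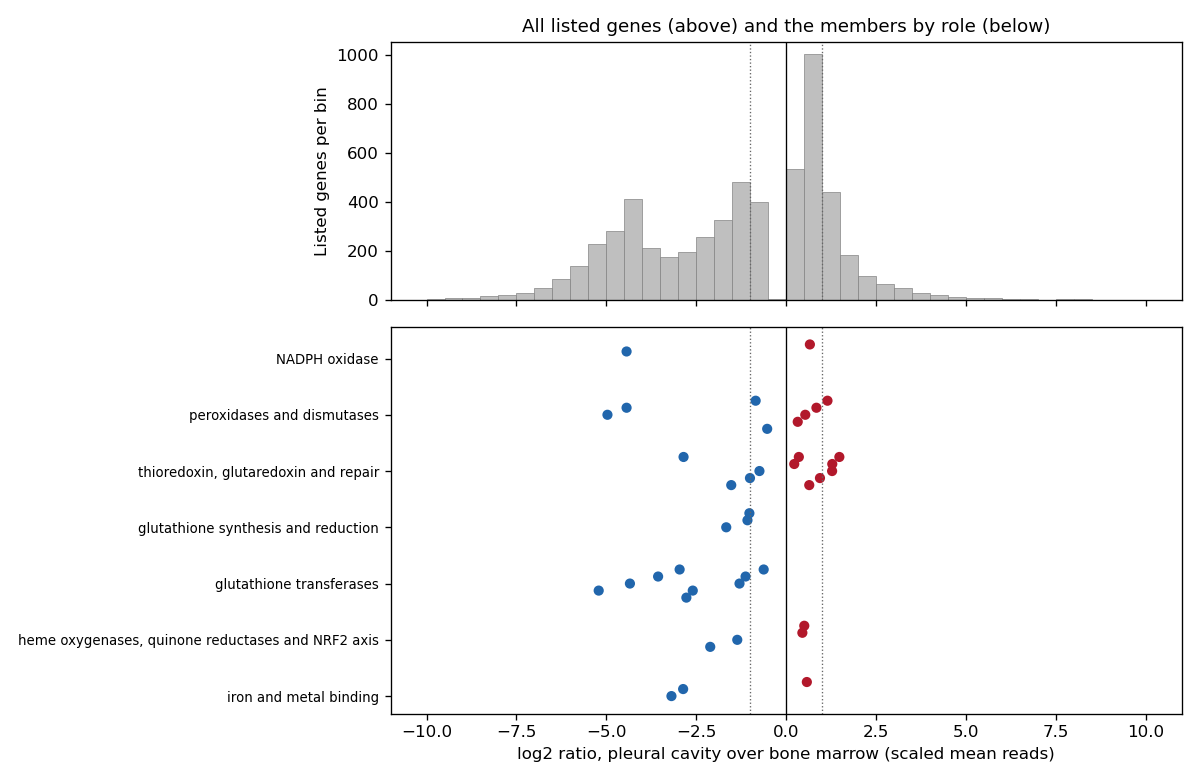
The upper panel counts all 5807 listed genes in bins of the log2 ratio of pleural cavity over bone marrow, and the lower panel shows the members described here by role, red where higher and blue where lower, with dotted lines at 2-fold. The bin from -0.5 to 0 holds 2 listed genes and the bin from 0 to 0.5 holds 535, and the 12 glutathione genes all lie to the left of 0.

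Of the heme oxygenases, quinone reductases and NRF2 family, 4 of 8 genes were listed, and each enzyme pair was split. Hmox1 (ENSMUSG00000005413; GRCm38 chr8:75093621-75100589), the inducible enzyme that breaks heme down to biliverdin, iron and carbon monoxide, had 465 mean reads in pleural cavity against 1486.5 in bone marrow eosinophils, a log2 ratio of -2.11. The constitutive Hmox2 had 3745 against 2026 reads and a ratio of 0.45. Nqo1, a quinone reductase and a standard NRF2 target, had 109.5 against 208.5 reads and a ratio of -1.36, or -0.92 without scaling, while its relative Nqo2 had 5291 against 2758 reads and a ratio of 0.50. NRF2 itself (Nfe2l2), its relatives Nfe2l1 and Nfe2l3 and Keap1 were not listed.

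Outside the rule, 8 of 23 partners and targets of NRF2 were listed, 4 higher and 4 lower, against 42.5% higher among all listed genes. NADPH is the electron source shared by the oxidase and by the reductases, and G6pdx and Idh1 encode enzymes that make it. G6pdx, the entry enzyme of the pentose phosphate pathway, had 7335.5 mean reads in pleural cavity against 10671.5 in bone marrow eosinophils, a log2 ratio of -0.98. Idh1, the cytosolic NADP-dependent isocitrate dehydrogenase, had 5320.5 against 2976 reads and a ratio of 0.40. The non-oxidative branch of the pentose phosphate pathway, which makes no NADPH, was split as well: Tkt, transketolase, had 10489 against 17596.5 reads and a ratio of -1.19, and Taldo1, transaldolase, had 47293 against 24307 reads and 0.52. Sqstm1, the autophagy receptor p62, which binds KEAP1, had 10407.5 against 5392 reads and a ratio of 0.51. Cbr1, Slc7a11 and Osgin1 make up the rest: the carbonyl reductase gene Cbr1 was higher, with 493.5 against 183 reads, and the cystine transporter gene Slc7a11 was lower, with 443 against 791. Osgin1 had 246 against 940 reads.

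Ferritin light chain had the highest level of all members. Ftl1 (ENSMUSG00000050708; GRCm38 chr7:45457944-45459884) had 153438 mean reads in pleural cavity against 76139 in bone marrow eosinophils, a log2 ratio of 0.57. Per kilobase of transcript per 1000000 listed reads this level was 9940 against 6687, and with the median transcript length it was still the highest of the members in both tissues. Ftl1, Gpx1 and Cyba together held 69% of all reads of members in the pleural cavity and 56.5% in the bone marrow. Tfrc (ENSMUSG00000022797; GRCm38 chr16:32608920-32632794), the receptor that takes up iron-loaded transferrin, had 181.5 against 981 reads and a log2 ratio of -2.87. The storage gene was thus higher and the uptake gene lower. The ferritin heavy chain gene Fth1, whose product oxidises iron for storage, was not listed.

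Among 32 other genes of iron handling 9 were listed, 2 higher and 7 lower, against 57.5% lower among all listed genes. Slc11a1, the metal transporter NRAMP1 of phagosomes, had 2339 mean reads in pleural cavity against 632 in bone marrow eosinophils, a log2 ratio of 1.45. Fbxl5, which senses iron and targets iron regulatory proteins for degradation, had 3054.5 against 1015.5 reads and a ratio of 1.15. Slc40a1, the iron exporter ferroportin, had 1916.5 against 4086.5 reads and a ratio of -1.53. Alas1, the first enzyme of heme synthesis, had 1322.5 against 13091 reads and a ratio of -3.75. Hfe, Tfr2, Steap4, Ltf and Lcn2 were lower as well; Tfr2 is also an erythroid marker, and Ltf and Lcn2 are granule genes of neutrophils, taken up again with the markers. Mt1 (ENSMUSG00000031765; GRCm38 chr8:94179082-94180327), a metallothionein that binds zinc and copper, had 160 against 1084 reads and a log2 ratio of -3.19, and Mt2 was not listed. Of 10 other genes of metal handling 4 were listed, among them Atox1, a copper chaperone, with 7389 against 2506.5 reads, and the zinc transporter gene Slc39a1, with 2873 against 1391.5. The transporter genes Slc30a5 and Slc31a1 were lower.

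Ferritin and the transferrin receptor share a sequence feature that the choice of members did not use, the iron-responsive element, a stem-loop in the untranslated region to which iron regulatory proteins bind. In GENCODE M21 transcripts of GRCm38, the loop CAGTGN was searched on the transcript strand, with G not allowed as its last base, the 5 bases before the loop pairing with the 5 after it, G-U pairs included, and an unpaired C just ahead of that stem. The search was chosen after the values were seen. It found a match in an untranslated region of 123 of 21877 protein-coding genes, or 0.562%, and in 2 of the 41 members, Ftl1 and Tfrc. The lower exporter gene Slc40a1, outside the rule, also had a match, as had Fth1, which the rule matches but which was not listed, so genes with the element stood on both sides. The sites of the 2 members are shown with the loop in capitals, because they lie at opposite ends of the transcript. Ftl1 had 1 match, in the 5′ untranslated region at GRCm38 chr7:45459781-45459805 on the minus strand, and Tfrc had 4 in the 3′ untranslated region, of which the first lies at chr16:32631221-32631245 and the last at chr16:32631712-32631736 on the plus strand.
Ftl1: cttgcttcaaCAGTGTttgaacgga
Tfrc, first: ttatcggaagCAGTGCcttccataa
Tfrc, last: ttatcgggaaCAGTGTttcccataa

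Promoters, taken as the 300 bases of the RefSeq table around each gene start (GRCm38.p6), were held for 34 of the 41 members. The antioxidant response element, to which NRF2 binds with small MAF proteins, was searched as TGACNNNGC on both strands and in no other spelling. It matched 7 of 34 members, or 20.6%, and 14% of the 27025 genes of the table. The matches were in 6 of the 20 lower members (Gclm, Gstm5, Mgst1, Prdx1, Txndc5 and Txndc11) and in 1 of the 14 higher ones (Srxn1). The metal response element, searched as TGCACNC or TGCGCNC on both strands, matched 13 of 34 members, or 38.2%, and 28.2% of all genes. At least 3 matches were present in Gclm and Mt1 and in 2.27% of all genes. A match describes the letters in this window and shows no binding.

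The promoters of Gclm and Srxn1 are shown because they carry the same element while one gene was lower and the other higher, with the match to TGACNNNGC in capitals, here on the strand opposite to the gene. They lie at GRCm38 chr3:122245307-122245606 for Gclm and chr2:152105274-152105573 for Srxn1, both on the plus strand. The promoter of Mt1 at chr8:94178839-94179138, also on the plus strand, is shown with its 3 metal response elements in capitals.
Gclm: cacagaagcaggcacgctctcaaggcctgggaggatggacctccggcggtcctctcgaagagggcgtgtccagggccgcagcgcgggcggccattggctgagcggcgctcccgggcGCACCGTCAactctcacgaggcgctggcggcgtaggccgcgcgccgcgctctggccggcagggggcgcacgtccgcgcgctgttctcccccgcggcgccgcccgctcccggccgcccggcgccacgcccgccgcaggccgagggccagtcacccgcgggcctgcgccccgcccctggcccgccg
Srxn1: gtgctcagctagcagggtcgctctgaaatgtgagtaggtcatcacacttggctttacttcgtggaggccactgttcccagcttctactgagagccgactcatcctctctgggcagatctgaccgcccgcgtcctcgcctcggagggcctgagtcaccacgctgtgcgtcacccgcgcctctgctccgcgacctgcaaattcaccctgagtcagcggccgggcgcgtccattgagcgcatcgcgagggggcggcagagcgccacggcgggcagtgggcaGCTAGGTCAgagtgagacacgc
Mt1: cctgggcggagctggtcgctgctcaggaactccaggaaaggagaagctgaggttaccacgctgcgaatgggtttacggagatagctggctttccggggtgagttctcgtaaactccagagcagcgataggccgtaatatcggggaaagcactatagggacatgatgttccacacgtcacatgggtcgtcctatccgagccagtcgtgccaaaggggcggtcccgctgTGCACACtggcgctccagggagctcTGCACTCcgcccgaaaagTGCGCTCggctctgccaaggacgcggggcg

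Genes that mark other cells or stages moved between the tissues as well. Of 11 eosinophil markers 10 were listed, 3 higher and 7 lower, and their sum was 8116 per 1000000 listed reads in pleural cavity against 95750 in bone marrow eosinophils. The receptor genes Ccr3 and Siglecf and the transcription factor gene Gata1 were higher, with Ccr3 at 67556.5 against 17177.5 mean reads. Granule protein genes were lower, among them Prg2, the most abundant of the list in bone marrow, at 1482 against 555404 reads, and Epx, eosinophil peroxidase, at 341.5 against 139062. All 15 neutrophil markers were listed and 14 were lower, with Mmp9 the exception at 34715 against 14050.5 reads, and their sum was 4478 per 1000000 in the pleural cavity and 118100 in the bone marrow. Mmp9, at 2177 per 1000000, and Retnlg, at 2127, made up most of the pleural sum. Ngp was the most abundant in bone marrow, at 546.5 against 263228.5 reads, and the primary granule gene Mpo had 374 against 196096.5. None of these neutrophil genes was at 0 in either tissue.

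Macrophage or monocyte markers gave 9 listed genes of 15, with 6 higher, and sums of 9761 per 1000000 in the pleural cavity and 10880 in the bone marrow. Adgre1 was the most abundant in the pleural cavity at 73916.5 against 11406 reads, and Lyz2 was so in bone marrow at 50393 against 87527. Adgre1 encodes F4/80, which the pleural gate required and through which the bone marrow cells were enriched. Csf1r had 20627.5 against 3973.5 reads and C1qb 5065 against 1093, while Ly6c2, at 608 against 22102, and Mrc1, at 250.5 against 445.5, were lower as Lyz2 was. Basophil or mast cell markers had 7 of 11 listed, all lower, with sums of 86.3 against 1884 per 1000000 and Hdc the most abundant. Erythroid markers had 7 of 13 listed, all lower, with sums of 1.94 against 115 per 1000000; Car2 was the most abundant in bone marrow, and Slc4a1 was at 0 in the pleural cavity. T, B or NK cell markers had 4 of 11 listed, 1 higher and 3 lower, with sums of 32.9 against 911.7 per 1000000, with Nkg7 the most abundant in bone marrow and Ms4a1 in the pleural cavity. Markers of LLC tumour or mesothelial cells had 5 of 11 listed, 2 higher and 3 lower, with sums of 894.1 against 578.1 per 1000000, mostly Vim, which leukocytes also express; the epithelial keratin gene Krt18 was the other higher one, at 1918 against 518 reads. Both gates required SiglecF. In bulk RNA, fewer cells of a type and less RNA per cell cannot be told apart, and the part of these cells and stages in the members' differences was not tested.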

How the data were processed

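Eosinophils were sorted from bone marrow and pleural lavage, 2 libraries each, and grouped as labelled. The authors used SOAPnuke for trimming, HISAT2 and Bowtie2 for mapping to GRCm38, RSEM for reads per gene and DESeq2 for the comparison of tissues. The submitters' processing notes name HISAT2 2.1.0, Bowtie2 2.2.5, RSEM 1.2.8 and StringTie 1.0.4. The deposited means are estimated counts from RSEM, which the authors averaged within a tissue without adjusting for depth. The table also holds the authors' log2 fold changes, p-values and q-values of pleural cavity over bone marrow, which were not used. It lists genes selected by that comparison, and a total per library is not given in it, so the depth of each library is unknown and the test planned for counts per library was not run.

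Mean reads were divided by the sum over all listed genes and given per 1000000 reads, and 1 read was added for log2 ratios. Folds printed without a log are ratios of scaled means with no read added. The floor is 3 mean reads per tissue. Intervals for means of up to 3 reads are exact 95% binomial intervals on the reads summed over both libraries and cover counting error only. Transcript lengths and coordinates come from GENCODE M21 on GRCm38, an earlier release than the authors', and all 41 members matched by Ensembl identifier. Levels per kilobase used the longest transcript, with the median length as the alternative. Mean reads that were no multiple of 0.5, within 0.001 reads, mark reads divided between similar genes. Calculations used Python 3.11.15 with pandas 2.3.3, numpy 2.4.6, scipy 1.17.1 and matplotlib 3.10.9, and the ratios were tested on simulated data.

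Members and gene lists were chosen with earlier results of these data known. Listed members were named, except that results of some genes are not reported here; counts include them. Both means were given for the oxidase subunits, members with at least 1000 reads in a tissue, the 5 largest ratios in each direction and selected iron, metal and NRF2 genes, and from each list outside the rule up to 5 genes with the most reads were named; other names, such as Osgin1 and Cbr1, were added after their values were seen. Alternatives covered scaling, pseudocount, low values, fold threshold, transcript length and genes with divided reads.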

Additional observations from a re-analysis of the deposited data

How the results depend on the processing

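No paired analysis was possible because the mean columns carry no replicate number, and for the same reason no library could be left out. No member changed direction under any scaling or pseudocount. Without scaling all log2 ratios moved by 0.44, with a trimmed mean of ratios by 0.45, and without the 35 genes that are among the 20 with the most reads in either tissue by -0.20. The members' median was then -0.57, -0.56 and -1.21; each of these scalings moves every gene by the same amount, so the members keep their place relative to all listed genes by construction. The number of members at least 2-fold higher was 9 without scaling and 9 with the trimmed mean, since Cyba, Gpx1, Srxn1, Txndc17 and Ftl1 pass 2-fold there as well, and at least 2-fold lower were 15 in both, with Gclm, Gsr, Gstm4, Mgst1, Nqo1 and Txndc11 then within 2-fold. Without the most abundant genes 3 members were at least 2-fold higher, since Gpx4 fell to 0.95. At 1.5-fold 8 members were higher, and at 4-fold 0 were higher and 13 lower. The shares of all listed genes given with the results hold for 2-fold and the scaling by listed reads only. None stands beside the counts of the other scalings and thresholds. With at least 50 mean reads in a tissue, 39 members passed and the median was -0.85. In an alternative chosen after seeing the data, a mean over both tissues of at least 1000 reads kept 21 members, of which 8 were lower, 2 at least 2-fold higher and 5 at least 2-fold lower, and the median turned to 0.34. Of all listed genes at that level, 30% were lower, 19.5% at least 2-fold higher and 18.2% at least 2-fold lower, with a median of 0.47. The other counts and the medians at pseudocounts of 0.5 and 5 and without divided reads stayed close to the values reported, with 11 of 35 members higher in the last case. With Prdx6b at its bound the median was -1.01.

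Mean reads of Ftl1, Prdx5, Sod2, Hmox2, Txnl4a and Txnrd2 were fractional, as were 25.8% of all listed genes, so reads divided between similar genes make these 6 uncertain. Exons of Hmox2 overlap those of Cdip1 on the other strand over 40.2% of their length, those of Ftl1 overlap Gm10252 over 26.5%, those of Txnip overlap Gm15441 over 19.4%, those of Prdx5 overlap Trmt112 over 19.1% and those of Nqo2 overlap Serpinb6a over 18.9%. The sources used here do not state that counting used the strand, so reads of such pairs cannot be told apart. Per kilobase, Ftl1, Gpx1 and Cyba held the top ranks, in this order, by the longest and by the median transcript length in both tissues.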
